A study of Mus musculus with 17 samples.

Results

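Hippocampus from epileptic mice given the Kcna1-activating guide (epileptic sgKcna1, 6 libraries) was compared with hippocampus from non-epileptic mice given a control guide (control sgLacZ, 5 libraries), across all genes. The aim was to describe which transcripts differed from the non-epileptic level after treatment, whether or not they also differed in untreated epileptic mice. These 11 libraries, chosen by their labels, were 11 of the 17 RNA-seq libraries of the series, each made from the hippocampus of an adult C57BL/6J wild-type mouse. Epileptic mice had received kainic acid in the right amygdala, which caused status epilepticus, and control mice a sham injection. A week later all mice of both groups received a pair of AAV9 vectors in the right ventral hippocampus, one carrying dCas9-VP64 (dCas9A, a catalytically dead Cas9 fused to a transcription activator) under a tetracycline-responsive promoter and the other carrying the guide with rtTA-t2a-tdTomato under the Camk2a promoter, which is active in forebrain excitatory neurons. Doxycycline food then switched the activator on in both groups. The guide was sgKcna1, directed to the Kcna1 promoter, in epileptic mice, and sgLacZ, directed to a bacterial gene, in controls, so epilepsy and guide differed together between the groups and their parts cannot be told apart in this contrast. The remaining 6 libraries, epileptic mice with sgLacZ, entered the statistical fit to estimate the spread and are given beside some individual genes. Their own comparison with controls shares the control libraries. By the larger of the Xist and Y-linked read levels the treated group held 2 females and 4 males and the control group 2 females and 3 males. Every library called female in either group also carried Y-linked reads above 2 CPM, so these sex calls are uncertain. The p-values measure the spread between these libraries.

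Kcna1 encodes Kv1.1, a voltage-gated potassium channel of axons and terminals that restrains repetitive firing and transmitter release. After status epilepticus the hippocampus is known to lose neurons, to gain reactive astrocytes and microglia, to sprout mossy fibres and to remodel channels, receptors and peptides of surviving neurons. In bulk tissue, fewer cells of a type and less RNA per cell cannot be told apart.

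The 6 treated libraries held 11839240 to 26942755 reads in genes and the 5 control libraries 15365455 to 24815671, so that 3 reads corresponded to between 0.111 and 0.253 CPM (reads relative to the library's total in genes, scaled by the TMM method in the values below) in treated libraries. sgKcna1 replicate 12 was the shallowest library. It had 41.5% unmapped reads against 19.1 to 24.6% in the other 5 treated libraries and 19.5 to 27.7% in controls, and 20598 detected genes against 22726 to 24577 and 21681 to 23673. Its median root-mean-square log2 distance to its own group was 2.37, against 1.22 to 1.31 for the other treated libraries. Counts of genes are therefore given with and without it. Reads of Xist and of Y-linked genes were both above 2 CPM in sgKcna1 replicates 1, 11 and 12 and in control replicates 16 and 23, as in epileptic sgLacZ replicate 8. Without these 6 libraries 0 genes passed the adjusted threshold in the fit without replicate 12 (1719 at an unadjusted p under 0.05). That fit compared only 3 treated with 3 control libraries, all called male, so fewer libraries and the removal of these libraries cannot be told apart. Markers of hippocampal tissue were present in every library, with a summed level of 1527 to 2943 CPM in treated and 1803 to 2265 CPM in control libraries.

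Kcna1 itself, the gene targeted by the guide (chr6:126636463-126645801, mm10), separated the treated libraries from each other more than from controls. It stood at 13.9, 15.1, 29.5, 19.5 and 18.7 CPM in sgKcna1 replicates 1, 2, 3, 10 and 11, at 133 CPM in replicate 12, and at 37.6, 44.0, 25.5, 33.7 and 34.6 CPM in the 5 controls. Replicate 12 was thus above every control, 4 treated libraries were below every control, and replicate 3 lay within the control range. Over all libraries the treated minus control log2 fold change was 0.11 (SE 0.49, adjusted p = 0.969, edgeR quasi-likelihood test with Benjamini-Hochberg adjustment). Without replicate 12 it was -0.87 (SE 0.28, adjusted p = 0.148), again not past the threshold. The difference of mean log2 CPM, in which the high value of replicate 12 weighs less, had the opposite sign to the fitted value over all libraries. It was -0.42 with all 11 libraries (two-sided exact permutation p = 0.522, smallest possible 0.00216). Leaving out replicate 12 gave -0.89 (two-sided exact permutation p = 0.0159). With 5 libraries in each group every split ties with its reverse, so the possible p-values are coarse. No treated library other than replicate 12 exceeded the control range. Epileptic sgLacZ libraries stood between 16.9 and 56.7 CPM, with a median of 27.6.

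With all libraries, no gene of 17615 tested passed an adjusted p of 0.05 in either direction (0% higher and 0% lower, edgeR quasi-likelihood test with Benjamini-Hochberg adjustment), and the lowest adjusted p was 0.246. DESeq2 called 39 genes and limma-voom with sample quality weights 71 in the same libraries. Unadjusted, 1192 genes had p under 0.05, of which 756 were higher (4.29% of those tested) and 436 lower (2.48%). In 99 genes all 6 treated libraries lay above all 5 controls (0.562%), and in 101 genes all lay below (0.573%). Without replicate 12, 14 of 17608 genes passed, 12 of them higher (0.0682%) and 2 lower (0.0114%), and the lowest adjusted p was 0.0307. Leaving out 1 further library gave 0 calls without sgKcna1 replicate 1 or 2 or control replicate 13, 14 or 16, and 3 and 8 without control replicates 15 and 23. It gave 9 without epileptic sgLacZ replicate 6 or 9, 35 and 58 without sgKcna1 replicates 10 and 11, and 88 and 668 without epileptic sgLacZ replicates 4 and 5. Unadjusted, 1809 were higher (10.3%) and 1411 lower (8.01%), and the groups did not overlap in 735 genes on the higher side (4.17%) and 748 on the lower (4.25%). A fit to the 10 libraries of these groups alone, in which the epileptic sgLacZ mice no longer set the spread, called 1998 of 16872 genes, 1030 higher (6.1%) and 968 lower (5.74%), with a lowest adjusted p of 0.00566. All 14 genes were among the 1998. The common biological coefficient of variation was 0.297 in the treated group with replicate 12, 0.196 without it, 0.179 in controls and 0.273 in epileptic sgLacZ mice. Of the 17531 genes tested both with and without replicate 12, 1031 were past an unadjusted p of 0.05 both times, all in the same direction. Another 150 were past it only with replicate 12 and 2181 only without it.

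**Figure D1:**
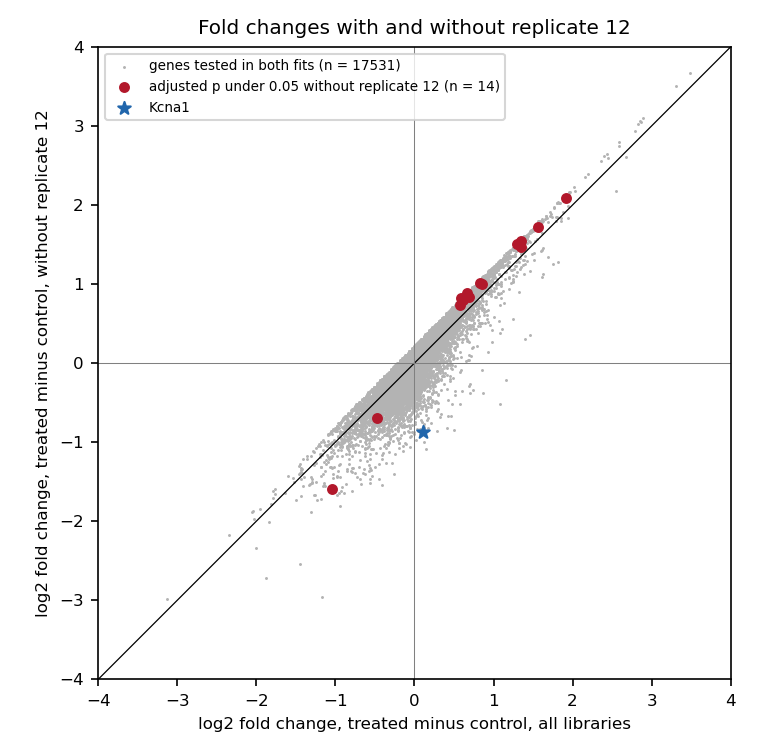
Treated minus control log2 fold change of each of 17531 genes with all libraries (x axis) and without sgKcna1 replicate 12 (y axis), with the genes past an adjusted p of 0.05 without replicate 12 marked. The 14 marked genes lie away from 0 on both axes, and Kcna1 moves from 0.11 to -0.87.

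Among genes with non-overlapping groups and the smallest p over all libraries, 6 on the higher side were named, and none passed the adjusted threshold over all libraries. Otof encodes otoferlin, a calcium sensor of vesicle release. It stood at 14.9, 4.59, 5.83, 3.49 and 3.58 CPM in treated replicates 1, 2, 3, 10 and 11 and 5.41 in replicate 12, against 1.89, 1.21, 2.3, 1.6 and 1.53 CPM in controls. Every treated library was above every control, and replicate 1 stood apart from its group. The log2 fold change was 1.88 (SE 0.36, adjusted p = 0.246), and 1.91 without replicate 12 (adjusted p = 0.0519, edgeR quasi-likelihood test). In the fit without replicate 12 epileptic sgLacZ minus control was 1.23 (adjusted p = 0.021).

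Plxnd1 encodes plexin D1, a semaphorin receptor of axons and vessels. It stood at 75.1, 44.6, 34.1, 26.4 and 24.9 CPM and 20.2 in replicate 12, against 13.4, 13.6, 16.0, 16.6 and 14.0 CPM in controls, again without overlap. The log2 fold change was 1.35 (SE 0.28, adjusted p = 0.246) over all libraries. Without replicate 12 Plxnd1 rose by 1.47 (SE 0.26, adjusted p = 0.0364, edgeR quasi-likelihood test). In the same fit epileptic sgLacZ minus control was 0.82 (adjusted p = 0.0245).

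Dtl, a substrate receptor of a ubiquitin ligase in the replication checkpoint, stood at 3.5 to 9.4 CPM in treated libraries with a median of 6.33, against 1.68 to 3.2 CPM in controls (log2 fold change 1.31, SE 0.27, adjusted p = 0.246). Zdhhc22, a palmitoyltransferase, stood at 21.5 to 53.4 CPM with a median of 29.0, against 10.3 to 17.9 CPM (1.19, SE 0.25, adjusted p = 0.246). For Dtl the epileptic sgLacZ libraries stood at 1.44 to 3.07 CPM, none above the highest control, with an epileptic sgLacZ minus control value of -0.14 without replicate 12, while for Zdhhc22 they reached 30.9 CPM and that value was 0.70. Nptx2, an activity-regulated pentraxin that gathers AMPA receptors, stood at 34.9, 30.2, 33.1, 33.0 and 24.5 CPM and 69.8 in replicate 12, against a mean of 20.3 ± 1.58 CPM (SD, n = 5) in controls, without overlap (0.88, SE 0.22, adjusted p = 0.389, and 0.61 without replicate 12). For Nptx2 the epileptic sgLacZ minus control value without replicate 12 was 0.62. Tyro3, a TAM receptor tyrosine kinase, stood at 129 to 183 CPM with a median of 152, against 98.2 to 124 CPM (0.41, SE 0.10, adjusted p = 0.389). These adjusted p-values are from the edgeR quasi-likelihood test over all libraries.

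On the lower side, 2 of the 6 named genes, Cfap299 and Fam183b, stood on the list of ependymal and motile-cilia genes. Cfap299 (1700007G11Rik in the files), a cilia and flagella associated gene, stood at 0.835, 0.635, 1.33, 0.815 and 1.21 CPM in treated replicates 1, 2, 3, 10 and 11 and 1.03 in replicate 12, against 2.33, 1.83, 1.55, 3.33 and 2.77 CPM in controls. The groups did not overlap, and the log2 fold change was -1.27 (SE 0.26, adjusted p = 0.246, edgeR quasi-likelihood test), or -1.29 without replicate 12 (adjusted p = 0.0578). Fam183b, a ciliary gene, stood at 4.44, 3.66, 3.61, 5.12 and 3.75 CPM and 5.41 in replicate 12, against 8.87, 9.91, 7.78, 7.6 and 5.66 CPM in controls (-0.89, SE 0.19, adjusted p = 0.246). For Fam183b the epileptic sgLacZ minus control value without replicate 12 was -0.62. Ppp1r32 (4930579J09Rik in the files), a phosphatase regulatory subunit gene, stood at 0.389 to 1.98 CPM with a median of 1.00, against 2.33 to 3.87 CPM (-1.41, SE 0.33, adjusted p = 0.348).

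The other lower genes were Cd24a, 1600029I14Rik and Mxra8. Cd24a, a surface glycoprotein of immature neurons and ependyma, stood at 8.67 to 16.0 CPM with a median of 12.6, against 16.0 to 24.8 CPM in controls (-0.77, SE 0.16, adjusted p = 0.246), and without replicate 12 the value was -0.84 (adjusted p = 0.0519). In the fit without replicate 12 epileptic sgLacZ minus control was -0.68 for Cd24a. 1600029I14Rik stood at 0.352 to 1.69 CPM against 2.22 to 3.46 CPM (-1.53, SE 0.32, adjusted p = 0.246). Mxra8, a matrix remodelling associated surface protein, stood at 5.97 to 8.42 CPM against 8.43 to 12.7 CPM (-0.57, SE 0.13, adjusted p = 0.33). The adjusted p-values are from the edgeR quasi-likelihood test.

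**Figure D2:**
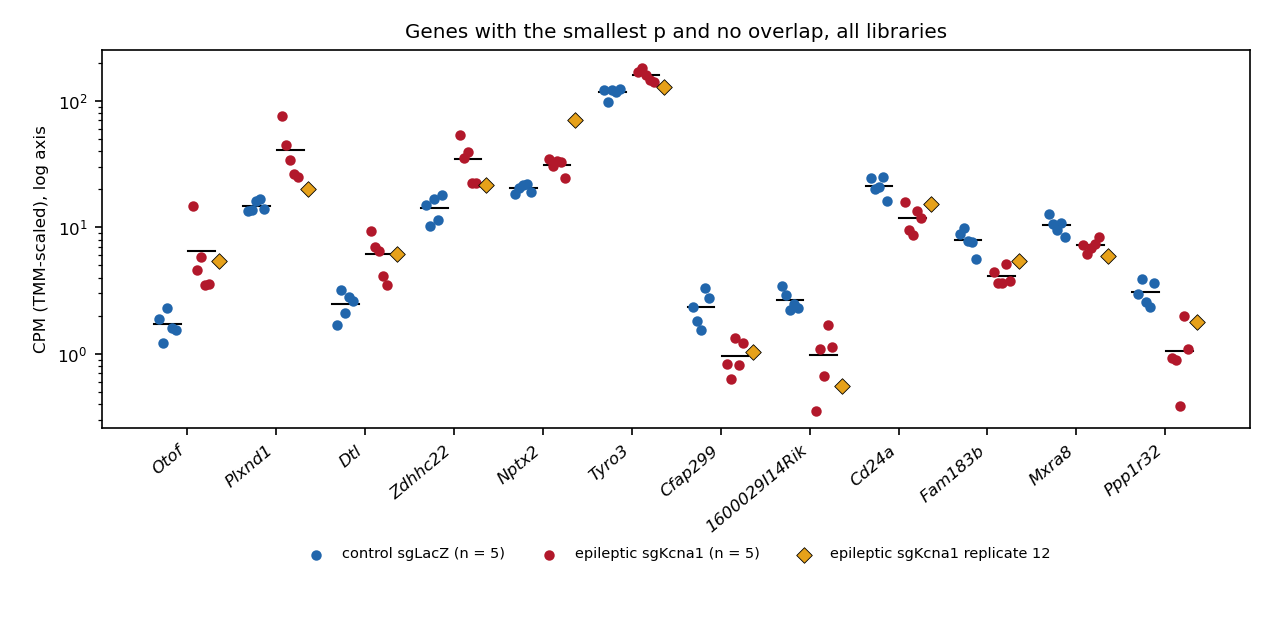
Level of the 6 higher and 6 lower named genes in each library (CPM, log axis), with control libraries in blue, treated libraries in red, replicate 12 as a diamond and lines at the means of 5 libraries. In each of the 12 genes all treated libraries lie on one side of all controls, and the Otof value of replicate 1, 14.9 CPM, is the highest of its group.

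Leaving out replicate 12, 12 genes rose and 2 fell at an adjusted p under 0.05 (edgeR quasi-likelihood test with Benjamini-Hochberg adjustment). With sex or the summed choroid plexus level as a covariate, 0 of these calls remained past the threshold (3156 and 2412 genes at an unadjusted p under 0.05). In 13 of the 14 the 5 treated libraries did not overlap the controls, Stx1a being the exception. Among all genes 4.17% did not overlap on the higher side and 4.25% on the lower. With replicate 12 as well, 12 of the 14 were past an unadjusted p of 0.05, Dbp being one of the exceptions. The all-gene shares there were 4.29% higher and 2.48% lower. The 14 were picked by their p in mostly the same libraries, so neither count is separate support. Cckbr, the receptor of cholecystokinin in the brain, stood at 23.5, 15.8, 26.0, 12.6 and 9.79 CPM, against 6.76, 4.58, 6.02, 6.13 and 7.31 CPM in controls, with 2.52 CPM in replicate 12. It rose by 1.5 (SE 0.23, adjusted p = 0.0307), and with replicate 12 the value was 1.30 (SE 0.36, adjusted p = 0.486). Rasgef1c, a Ras guanine nucleotide exchange factor, stood at 15.6, 9.11, 9.00, 4.89 and 3.58 CPM against 1.21 to 2.76 CPM in controls, with 2.05 CPM in replicate 12, and rose by 2.09 (SE 0.37, adjusted p = 0.0364). It had the largest rise of the 14.

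Ngef (ephexin-1), which links Eph receptors to small GTPases in growth cones and spines, stood at 144, 147, 162, 125 and 109 CPM against 66.3 to 91.7 CPM in controls, with 47.0 CPM in replicate 12, and rose by 0.74 (SE 0.12, adjusted p = 0.0307). Ipcef1, a partner of cytohesin exchange factors, stood at 24.0 to 39.7 CPM against 15.0 to 18.6 CPM, with 12.8 CPM in replicate 12, and rose by 1.00 (SE 0.18, adjusted p = 0.0488). Stx1a, syntaxin-1A of the presynaptic SNARE complex, stood at 233, 234, 220.3, 171 and 129 CPM against 97.0, 102, 109, 114 and 130.2 CPM, with 78.4 CPM in replicate 12, and rose by 0.83 (SE 0.14, adjusted p = 0.0307). Only replicate 11 lay within the control range. Schip1, a schwannomin-interacting protein of the axon initial segment and nodes, stood at 2.91 to 5.23 CPM against 0.974 to 1.92 CPM and rose by 1.72 (SE 0.29, adjusted p = 0.0307), and in the same fit epileptic sgLacZ minus control was 2.25 (adjusted p = 0.00418). The unnamed gene ENSMUSG00000117935 and Gm13904 rose by 1.55 and 1.02, both edgeR quasi-likelihood calls. Replicate 12 was below every control in both, at 0.187 CPM against 0.600 to 0.957 CPM and at 0.653 CPM against 1.54 to 1.92 CPM.

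Gtpbp6, a GTP-binding protein, and Dbp, a clock-controlled transcription factor, rose by 0.80 and 0.82 (both adjusted p = 0.0307, edgeR quasi-likelihood test). In these genes the 2 strand-specific counts summed to 5.39 and 2.72 times the unstranded count, as happens where reads that overlap a gene on the other strand are left out of the unstranded count. With the strands added, the values without replicate 12 were 0.01 for Gtpbp6 and 0.15 for Dbp, neither past the threshold. That sum also takes in reads shared with the gene on the other strand, so it cannot decide whether Gtpbp6 or Dbp rose.

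Of the 2 that fell, Tmem212, a membrane protein of multiciliated cells, stood at 3.38, 3.47, 3.33, 7.57 and 4.54 CPM, against 16.2, 18.4, 8.49, 11.6 and 12.3 CPM in controls, with 17.5 CPM in replicate 12. It fell by 1.60 on the log2 scale (SE 0.27, adjusted p = 0.0307, edgeR quasi-likelihood test), and epileptic sgLacZ minus control was -1.24. Mmp14, a membrane-anchored matrix metalloproteinase, stood at 21.4, 21.9, 19.8, 18.2 and 21.5 CPM against 36.5, 32.4, 32.7, 31.1 and 32.3 CPM, with 40.6 CPM in replicate 12, and fell by 0.69 (SE 0.12, adjusted p = 0.0364). Slc4a7, a bicarbonate transporter, and Cald1, the actin-binding caldesmon, were also below all controls in the 5 libraries, with values of -0.49 and -0.58 (both adjusted p = 0.0519). Replicate 12, at 71.2 CPM for Slc4a7 and 89.1 CPM for Cald1, was above all controls. In the same fit 11 of the 14 also passed an adjusted p of 0.05 for epileptic sgLacZ minus control, all but Rasgef1c, Cckbr and Stx1a. Both comparisons use the same controls, so they are not separate. None of the 14 passed the test of treated minus epileptic sgLacZ (lowest adjusted p = 0.204).

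**Figure D3:**
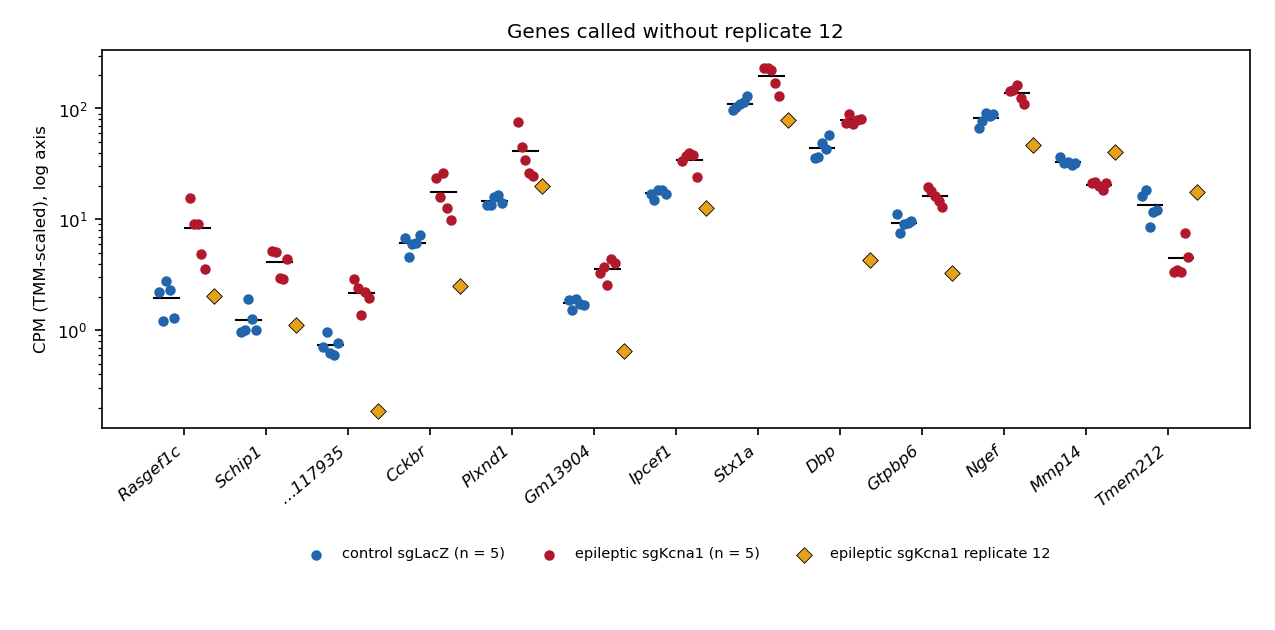
Level of 13 of the 14 genes past an adjusted p of 0.05 without replicate 12 in each library (CPM, log axis), with controls in blue, the other 5 treated libraries in red, replicate 12 as a diamond and lines at the means of 5 libraries. For Tmem212 and Mmp14 replicate 12 (17.5 and 40.6 CPM) lies with or above the controls, opposite to the other 5 treated libraries.

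The list of ependymal and motile-cilia genes, 37 of them tested, had the most members on the lower side of the marker lists. Over all libraries 13 were lower and 1 higher at an unadjusted p under 0.05, against 2.48% and 4.29% of all genes, 31 had a negative value, and the median log2 fold change was -0.49 against 0.016 over all genes. Without replicate 12, 16 were lower and 1 higher (8.01% and 10.3% of all genes), the median was -0.59, and Tmem212 was the 1 member called. In the fit to the 10 libraries alone, 8 of 35 were called lower and 0 higher, against 5.74% and 6.1%. The summed level of the list was 117, 101, 114, 212, 163 and 191 CPM in treated replicates 1, 2, 3, 10, 11 and 12 and 272, 194, 202, 186 and 199 CPM in controls. Replicates 1, 2, 3 and 11 were below every control, while replicates 10 and 12 lay among them. Epileptic sgLacZ libraries summed to 180 to 239 CPM, with a median of 189. Choroid plexus markers, which neighbour ependyma in dissection, summed to 488 to 9510.4 CPM in treated and 1567 to 14612 CPM in control libraries, with 0 of 22 past an unadjusted p of 0.05 in either direction and a median of -0.39. With the summed choroid plexus level as a covariate, 12 ependymal members were lower over all libraries and 14 without replicate 12. Leaving out 1 library moved the 13 to 8 without sgKcna1 replicate 2 and to 22 without sgKcna1 replicate 10. Without the libraries with both Xist and Y-linked reads, which left 3 treated and 3 control libraries, the 16 became 10.

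The promoter windows of the called member Tmem212 and of Fam183b, a listed gene whose groups did not overlap over all libraries, are shown because motile-cilia genes are known to be driven by RFX factors, which bind an X-box made of a pair of half-sites. Each window runs from 250 bases before to 50 bases after the RefSeq start (GRCm38.p6, minus strand in both, chr3:27896319-27896618 for Tmem212 and chr11:58801911-58802210 for Fam183b), and capitals mark the half-site GTTGCC on either strand.
Tmem212: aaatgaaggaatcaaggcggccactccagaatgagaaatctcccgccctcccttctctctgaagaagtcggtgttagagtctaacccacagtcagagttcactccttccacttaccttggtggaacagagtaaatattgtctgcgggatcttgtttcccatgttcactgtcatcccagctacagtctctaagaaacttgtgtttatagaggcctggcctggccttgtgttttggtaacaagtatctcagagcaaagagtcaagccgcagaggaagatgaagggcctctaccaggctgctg
Fam183b: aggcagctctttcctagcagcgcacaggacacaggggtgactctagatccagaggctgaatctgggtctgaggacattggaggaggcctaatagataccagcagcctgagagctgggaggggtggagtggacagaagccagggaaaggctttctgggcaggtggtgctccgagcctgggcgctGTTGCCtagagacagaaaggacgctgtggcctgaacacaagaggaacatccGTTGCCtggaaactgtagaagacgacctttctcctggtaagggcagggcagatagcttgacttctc
The Tmem212 window held 0 GTTGCC half-sites and the Fam183b window 2. The Fam183b window also held a 2-armed form, in which GTTNCC is followed by GGNAAC after 0 to 2 other bases. Tmem212 lacked the 2-armed form, but its window held gtttcc and ggtaac, which match these looser arms apart from each other. A GTTGCC half-site on either strand stood in windows of 18 of the 32 listed genes with a window (56.25%), against 3821 of 27025 genes overall (14.14%), and the 2-armed form, which can overlap the half-site, in 3 of 32 (9.375%) against 235 overall (0.8696%). Of the 11 members with a window that were lower over all libraries, 6 held the half-site and 3 the 2-armed form. The motif was chosen after the values were seen, and a match is a description of the letters only.

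**Figure D4:**
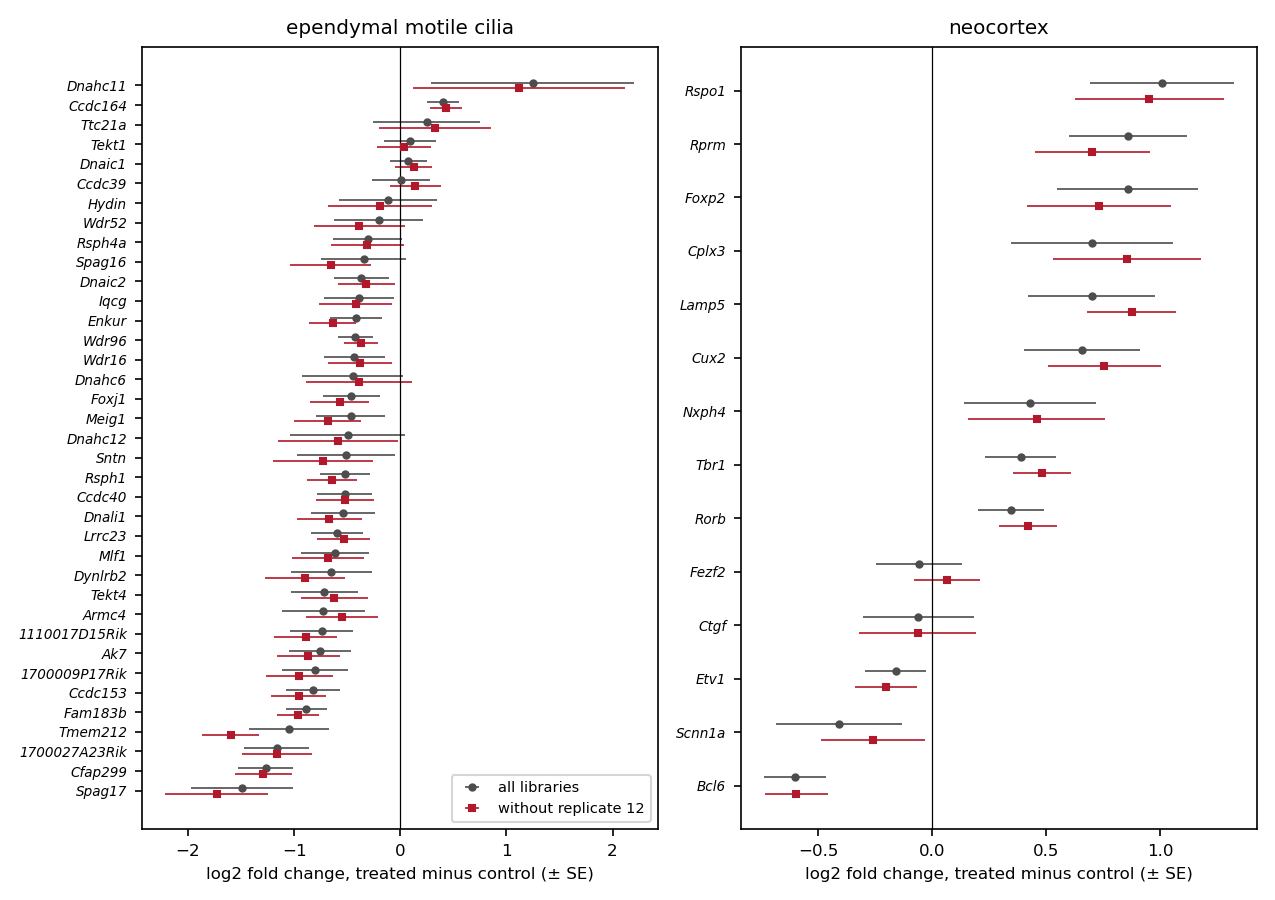
Treated minus control log2 fold change of each tested member of the ependymal and motile-cilia list and of the neocortex list, with all libraries and without replicate 12 and bars of 1 SE. Of the ependymal members, 31 of 37 lie below 0 over all libraries, with a median of -0.49, and the neocortex members have a median of 0.41.

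Markers of neocortex stood on the higher side. Of 14 tested, 7 were higher and 1 lower at an unadjusted p under 0.05 over all libraries (median 0.41, against 4.29% and 2.48% of all genes), and 8 and 1 without replicate 12 (median 0.47, against 10.3% and 8.01% of all genes). In the 10 libraries alone 5 were called higher and 1 lower (6.1% and 5.74% of all genes). Without sgKcna1 replicate 3 the 7 over all libraries became 3. The summed level was 590.2, 543, 581, 496, 409 and 468 CPM in treated replicates 1, 2, 3, 10, 11 and 12 and 413 to 464 CPM in controls, so replicate 11 was below the controls and the other 5 above. Epileptic sgLacZ libraries summed to 372 to 460 CPM, with a median of 394. Lamp5 (6330527O06Rik in the files), a membrane protein of superficial cortical neurons and neurogliaform cells, stood at 69.4, 71.6, 104, 51.5 and 34.5 CPM and 18.1 in replicate 12, against 32.3 to 39.8 CPM in controls (0.70 over all libraries and 0.88 without replicate 12, adjusted p = 0.0624, edgeR quasi-likelihood test). Rprm, a p53-regulated cell cycle inhibitor used as a deep-layer marker, stood at 54.2 to 153 CPM against 48.6 to 66.5 CPM (0.86, SE 0.26, adjusted p = 0.575). Rorb, a layer 4 nuclear receptor, had a value of 0.35 (SE 0.14). The 1 member on the lower side was Bcl6, a transcription repressor of cortical neurons, at 24.2 to 44.6 CPM against 42.6 to 52.2 CPM (-0.60, SE 0.13, adjusted p = 0.258).

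Of 13 striatal and amygdalar markers, 4 were higher and 0 lower over all libraries (median 0.27), and 4 and 1 without replicate 12. Among all genes 4.29% were higher and 2.48% lower over all libraries, and 10.3% and 8.01% without replicate 12. Penk, the enkephalin precursor, stood at 102, 52.8, 39.5, 81.2 and 32.2 CPM and 163 in replicate 12, against 35.1 to 48.8 CPM, with overlap. Of 13 thalamic markers none was past an unadjusted p of 0.05 over all libraries (median 0.19) and 1 was lower without replicate 12. How much of the cortical and striatal signal came with dissected tissue was not tested.

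Counts of hippocampal principal-cell markers at an unadjusted p under 0.05 stand beside 4.29% of all genes higher and 2.48% lower over all libraries, and 10.3% and 8.01% without replicate 12. Among 14 hippocampal tissue markers 0 were higher and 1 lower over all libraries (median -0.12), and 0 and 4 without replicate 12 (median -0.21, against 10.3% and 8.01% of all genes), and 4 were called lower in the 10 libraries alone (5.74% of all genes). Spink8, a CA1 protease inhibitor, stood at 17.9 to 37.8 CPM against 37.0 to 52.2 CPM (-0.59, SE 0.26). Zbtb20, a transcription factor that specifies hippocampal pyramidal fate, stood at 183, 138, 172, 304 and 303 CPM against 305 to 433 CPM, with 1053 CPM in replicate 12, and Neurod2 at 158 to 246 CPM against 271 to 344 CPM, with 661 CPM in replicate 12. For these 2 the value went from -0.80 and -0.50 without replicate 12 to -0.09 and -0.08 with it. The 15 dentate granule markers had 0 higher and 1 lower (median -0.17), and 0 and 2 without replicate 12. Tdo2, a tryptophan dioxygenase of granule cells, stood at 1.21 to 6.56 CPM against 7.06 to 11.0 CPM without overlap (-0.97, SE 0.31, adjusted p = 0.609), and Maml2, a Notch coactivator, at 19.6 to 24.0 CPM against 26.2 to 35.7 CPM outside replicate 12 (-0.51). The 21 CA pyramidal markers had 0 higher and 3 lower (median -0.07), and 2 and 6 without replicate 12, among them Bok, a BCL-2 family protein (-0.42 over all libraries), and Hs3st4, a heparan sulphate sulphotransferase (-0.22, and -0.47 without replicate 12). In the 10 libraries alone 4 of 20 CA markers were called lower and 0 higher, against 5.74% and 6.1% of all genes. These p-values are from the edgeR quasi-likelihood test.

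GABAergic interneuron markers (20 tested) had 3 higher and 0 lower over all libraries (median -0.00), and 3 and 1 without replicate 12 (median -0.08). For these and the next lists, 4.29% of all genes were higher and 2.48% lower over all libraries, and 10.3% and 8.01% without replicate 12. Vip, the peptide of disinhibitory interneurons, stood at 23.6 to 44.1 CPM against 22.5 to 28.5 CPM (0.38, SE 0.17). Neurogenesis and proliferation genes (23) had 1 higher, Dtl, and 1 lower, Cd24a, with a median of -0.01, and 2 and 3 without replicate 12. Immediate early genes (26), which mark recent activity, had 2 higher and 1 lower (median 0.13), and 1 and 2 without replicate 12 (median 0.06), with Nptx2 described above. Nr4a3, an activity-induced nuclear receptor, stood at 43.2 to 69.9 CPM against 57.2 to 88.6 CPM (-0.42, SE 0.14, adjusted p = 0.615, edgeR quasi-likelihood test).

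Among hippocampal neuropeptides and their receptors (24) 3 were higher and 2 lower (median 0.07), and 4 and 2 without replicate 12. The all-gene shares were 4.29% and 2.48% over all libraries, and 10.3% and 8.01% without replicate 12. Npy2r, the presynaptic receptor by which neuropeptide Y restrains glutamate release, stood at 22.6 to 39.1 CPM against 37.9 to 50.8 CPM (-0.51, SE 0.14, adjusted p = 0.449). Trh, thyrotropin-releasing hormone, reached 24.0 CPM in replicate 1 and 0.233 to 1.42 CPM in the other 5 treated libraries, against 0.133 to 0.794 CPM in controls, and its fitted value of 3.31 (SE 1.07) was 0.57 without replicate 1.

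Mef2c, a transcription factor that limits excitatory synapse number, stood at 315, 234, 361, 214 and 136 CPM in treated replicates 1, 2, 3, 10 and 11 and 175 in replicate 12, against 119 to 140.5 CPM in controls. Only replicate 11 lay within the control range. The value was 0.84 (SE 0.18, adjusted p = 0.246) over all libraries and 0.90 (adjusted p = 0.0519) without replicate 12, while treated minus epileptic sgLacZ was 1.08 (adjusted p = 0.0591, edgeR quasi-likelihood test). Epileptic sgLacZ libraries stood at 104 to 132 CPM. The list of MEF2 factors and class IIa deacetylases (7) had 1 higher and 0 lower with a median of 0.09, and 2 and 0 without replicate 12. Over all genes the shares were 4.29% and 2.48%, and 10.3% and 8.01% without replicate 12.

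The list of Kv1 channels and their partners (20) had 1 higher and 1 lower over all libraries with a median of 0.07, and 3 higher and 5 lower without replicate 12. Shares of all genes were 4.29% higher and 2.48% lower over all libraries, and 10.3% and 8.01% without replicate 12. Kcnab1, the Kv-beta-1 subunit that binds Kv1.1, stood at 96.5 to 141 CPM against 133 to 149 CPM (-0.22, SE 0.09). Lgi4, a secreted partner of ADAM22 proteins, stood at 1.31 to 4.92 CPM against 0.666 to 1.59 CPM (1.38, SE 0.47), but its strand-specific counts summed to 8.90 times the unstranded count.

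Other voltage-gated potassium and HCN channels (37) had 9 higher and 1 lower at an unadjusted p over all libraries (median 0.17, against 4.29% and 2.48% of all genes). Without replicate 12, 9 were higher and 2 lower, against 10.3% and 8.01% of all genes. In the 10 libraries alone 8 were called higher and 0 lower, against 6.1% and 5.74% of all genes. Kcnip3, a calcium-binding Kv4 subunit, stood at 97.2 to 163 CPM against 78.4 to 91.2 CPM without overlap (0.53, SE 0.15, adjusted p = 0.527). Kcnv1, a silent subunit that modifies Kv2 channels, stood at 31.8 to 69.3 CPM against 29.2 to 39.1 CPM (0.51, SE 0.16). Dpp10, an auxiliary Kv4 subunit, stood at 128, 78.6, 87.5, 56.1 and 51.0 CPM and 37.7 in replicate 12, against 34.9 to 53.2 CPM (0.77, SE 0.26). Voltage-gated sodium and calcium channels (28) had 0 past an unadjusted p over all libraries (median 0.11) and 3 higher and 2 lower without replicate 12, among them Cacng3, an AMPA receptor auxiliary subunit of the calcium channel gamma family, at 42.3 to 72.6 CPM against 28.1 to 40.9 CPM (0.66), with 12.3 CPM in replicate 12.

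Counts in the synaptic lists stand beside 4.29% of all genes higher and 2.48% lower over all libraries, and 10.3% and 8.01% without replicate 12. Vesicle release genes (29) had 3 higher and 1 lower over all libraries (median 0.11), 8 and 1 without replicate 12, with Otof and Stx1a described above. Slc17a8, the vesicular glutamate transporter VGLUT3, was the lower member, at 2.55 to 5.00 CPM against 4.66 to 7.09 CPM (-0.79, SE 0.21, adjusted p = 0.394). Postsynaptic density genes (29) had 3 higher and 0 lower (median 0.14), 6 and 3 without replicate 12, with Dlg1 (SAP97) at 65.6 to 99.8 CPM against 61.8 to 79.9 CPM (0.27) and Dlgap3 (SAPAP3) at 0.40 without replicate 12. Glutamate receptors (28) had 4 higher and 1 lower (median 0.14), 6 and 4 without replicate 12, with Cnih3, an AMPA receptor auxiliary protein, at 0.45 and Grm5, the mGlu5 receptor, at -0.35 without replicate 12. GABA receptors and chloride transporters (24) had 2 higher and 1 lower (median 0.10), 3 and 3 without replicate 12. Gabra5, the alpha-5 subunit of tonic inhibition in hippocampus, stood at 121 to 190.3 CPM against 179 to 221 CPM (-0.34, SE 0.11, adjusted p = 0.619, strand counts summing to 1.15 times the unstranded count), and Gabra3, the alpha-3 subunit, at 115, 81.6, 59.1, 55.4 and 59.4 CPM and 31.7 in replicate 12, against 40.5 to 49.7 CPM (0.61, SE 0.22, and 0.74 without replicate 12, edgeR quasi-likelihood test).

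Axon growth and sprouting genes (27) had 2 higher and 0 lower (median 0.04), and 2 and 4 without replicate 12. Beside these and the next lists, 4.29% of all genes were higher and 2.48% lower over all libraries, and 10.3% and 8.01% without replicate 12. Sema3a, a repulsive guidance cue, stood at 10.9, 9.74, 11.5, 7.22 and 3.50 CPM and 4.76 in replicate 12, against 1.46 to 4.44 CPM (1.57, SE 0.33, adjusted p = 0.246). Its receptor subunit Nrp1 stood at 33.9 to 46.0 CPM outside replicate 12 against a mean of 61.6 ± 7.21 CPM (SD, n = 5) in controls (-0.61, adjusted p = 0.055 without replicate 12, edgeR quasi-likelihood test), but at 116 CPM in replicate 12, and L1cam, an axonal adhesion molecule, had a value of 0.37 (SE 0.17). Neurotrophins and Trk receptors (15) had 0 higher and 1 lower (median -0.01), and 0 and 4 without replicate 12 (median -0.22). Ntf3, neurotrophin-3 of granule cells, stood at 4.01 to 9.58 CPM against 12.3 to 17.8 CPM without overlap (-0.86, SE 0.28, adjusted p = 0.609). Extracellular matrix and perineuronal net genes (33) had 2 higher and 1 lower both over all libraries (median 0.07) and without replicate 12 (median 0.00), with Pxdn, a peroxidase that crosslinks collagen IV, at 28.4 to 36.6 CPM against 17.9 to 28.1 CPM (0.46, SE 0.14), and Mmp14 called lower without replicate 12.

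Counts in the glial and inflammatory lists stand beside 4.29% of all genes higher and 2.48% lower over all libraries, and 10.3% and 8.01% without replicate 12. Reactive astrocyte markers (22) had 1 higher and 1 lower (median -0.05), and 0 and 2 without replicate 12 (median -0.19), with Tm4sf1 at 20.8 to 33.0 CPM against 31.1 to 44.4 CPM (-0.47, SE 0.18). Resting astrocyte markers (14) had 3 higher and 0 lower (median 0.06), and 4 and 1 without replicate 12, with Fgfr3 at 80.2 to 104 CPM against 71.8 to 82.1 CPM (0.25, SE 0.09) and Sox9 at 51.9 to 96.0 CPM outside replicate 12 against 88.7 to 142 CPM (-0.64 without replicate 12 and -0.19 with it). Homeostatic microglia markers (18) had 2 higher and 0 lower (median 0.12), and 6 and 0 without replicate 12, with Csf1r, the CSF-1 receptor, at 0.22 (SE 0.10, strand counts summing to 1.37 times the unstranded count) and P2ry13, a purinergic receptor, at 0.36 (SE 0.17). Activated microglia and macrophage markers (23) had 0 higher and 1 lower (median -0.08), and 2 and 5 without replicate 12. Complement genes (18) had 0 past an unadjusted p over all libraries and 1 higher and 1 lower without replicate 12, and antigen presentation and interferon genes (30) had 1 higher and 0 lower both times. Cytokine signalling genes (28) had 1 higher and 2 lower both times, with Socs3, a feedback inhibitor of STAT3 signalling, at 1.87 to 2.72 CPM against 0.624 to 1.73 CPM without overlap (0.94, SE 0.27, adjusted p = 0.512), Il1r1, the interleukin-1 receptor, at -0.61 (SE 0.20) and Tgfb2, a TGF-beta ligand, at -0.38 (SE 0.16, edgeR quasi-likelihood test). For Il1r1 and Tgfb2 the epileptic sgLacZ minus control values without replicate 12 were 0.00 and -0.12, beside treated values of -0.58 and -0.55.

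Oligodendrocyte and myelin genes (23) had 0 higher and 1 lower (median -0.15), and 0 and 4 without replicate 12 (median -0.28). All-gene shares for this and the next lists were 4.29% higher and 2.48% lower over all libraries, and 10.3% and 8.01% without replicate 12. Enpp6, a marker of newly formed oligodendrocytes, stood at 4.48 to 17.6 CPM against 14.3 to 19.5 CPM (-0.59, SE 0.27). Leptomeningeal and perivascular fibroblast markers (16) had 0 higher and 2 lower (median -0.38), and 0 and 3 without replicate 12 (median -0.43), with Ogn, a small leucine-rich proteoglycan, at 4.26 to 8.04 CPM against 6.19 to 15.6 CPM (-1.02, SE 0.22, adjusted p = 0.246, edgeR quasi-likelihood test). Vascular markers (23) had 2 higher and 1 lower, and 4 and 3 without replicate 12, and blood markers (5) had 0 and 0, and 1 and 0 without replicate 12. Of 4 lymphocyte markers 2 were higher (median 0.86), and 1 without replicate 12, with Trbc2, a T-cell receptor constant region, at 10.2 and 7.28 CPM in replicates 3 and 10 and 0.527 to 1.54 CPM in the other treated libraries, against 0.541 to 2.48 CPM in controls.

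Ribosomal protein and oxidative phosphorylation genes gave different counts in the different fits, and ribosomal protein genes have near-identical pseudogene copies, so their values are uncertain. Unadjusted, 4.29% of all genes were higher and 2.48% lower over all libraries, and 10.3% and 8.01% without replicate 12. Cytosolic ribosomal protein genes (35) had 0 past an unadjusted p in either direction with all libraries (median -0.19) and without replicate 12 (median -0.32), whereas the 10 libraries alone gave 22 called lower and 0 higher, against 5.74% and 6.1% of all genes. Their summed level was 13655 to 16730 CPM in treated libraries outside replicate 12, 24711 CPM in it, and 16731 to 22059 CPM in controls. Rplp1, of the ribosomal stalk, stood at 1282, 1207, 1358, 1304 and 1086 CPM and 3140.4 in replicate 12, against 1409 to 2293 CPM, and its partner Rplp2 had values of -0.24 with replicate 12 and -0.59 without it. Rpl7 lay below controls in all treated libraries, at 337 to 409 CPM against 417 to 481 CPM (-0.22, SE 0.13). Oxidative phosphorylation genes (38) had 0 higher and 1 lower (median -0.17), 3 and 9 without replicate 12, and 2 and 15 called in the 10 libraries alone, with Sdhd, a subunit of complex II, at 109 to 130.3 CPM against 124 to 151 CPM (-0.24, SE 0.11) and Cyc1, cytochrome c1, on the higher side at 0.30 without replicate 12.

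The lists that follow stand beside 4.29% of all genes higher and 2.48% lower over all libraries, and 10.3% and 8.01% without replicate 12. Circadian clock genes (19) had 2 higher and 0 lower (median 0.10), and 4 and 1 without replicate 12, with Clock at 55.0 to 61.6 CPM outside replicate 12 against 69.2 to 75.3 CPM (-0.33, adjusted p = 0.0624, edgeR quasi-likelihood test) and at 121 CPM in replicate 12. Cholesterol and fatty acid synthesis genes (22) had 0 past an unadjusted p over all libraries and 4 higher and 2 lower without replicate 12, with Elovl6, a fatty acid elongase, at -0.38. Adenosine and endocannabinoid genes (15) had 0 over all libraries and 2 higher and 1 lower without replicate 12. The 5 tested genes predicted as off-targets of the guide had 0 over all libraries and 0 higher and 1 lower without replicate 12.

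**Figure D5:**
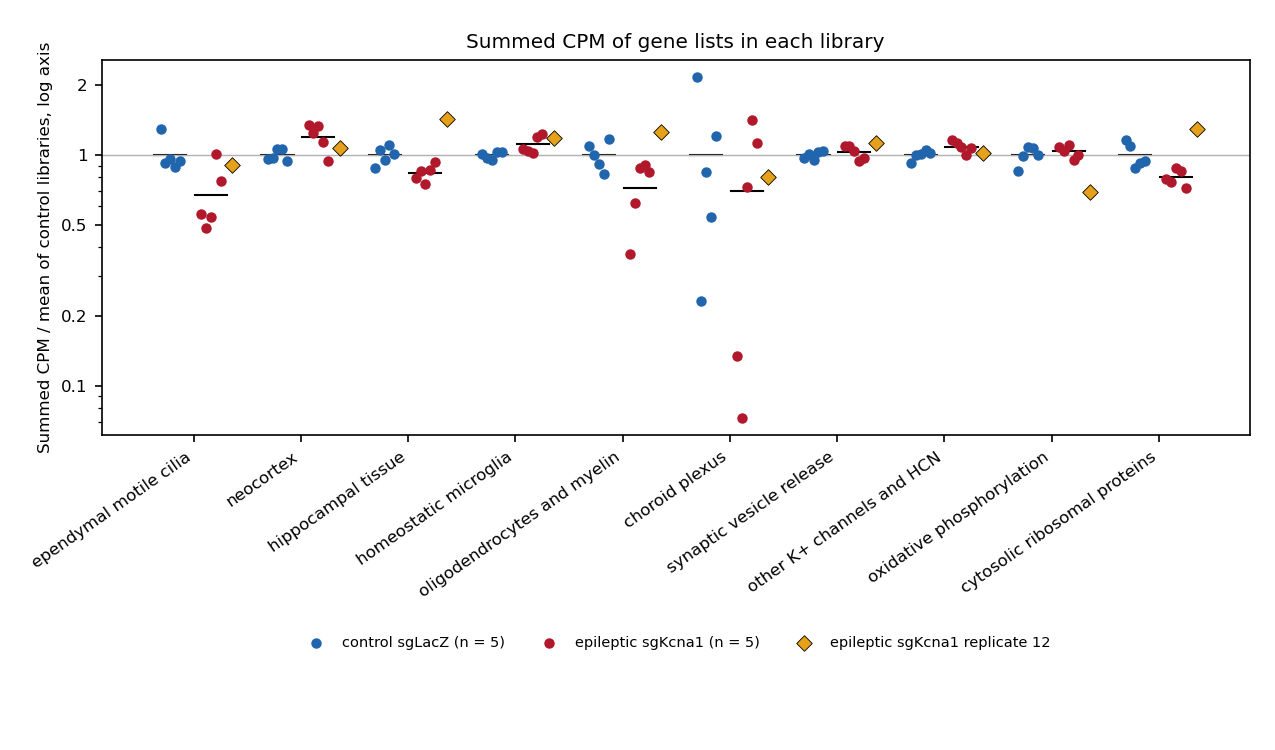
Summed CPM of marker and gene lists in each library (log axis) for 10 lists divided by the control mean, with replicate 12 as a diamond and lines at the means of 5 libraries. Replicate 12 stands above the other treated libraries for ribosomal proteins (24711 CPM) and hippocampal markers (2943 CPM) and below them for oxidative phosphorylation (20550 CPM).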

How the data were processed

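RNA from hippocampus was sequenced in 17 libraries, of which the 11 of the epileptic sgKcna1 and control sgLacZ groups were compared. The authors deposited gene read counts for each library, unstranded and for each strand, and the submitters' processing notes name STAR 2.7, the mm10 genome and DESeq2. The labels name an unstranded library kit and the study's methods a stranded one. Forward and reverse counts were nearly equal in every library (ratio 0.994 to 0.998), as for reads that carry no strand, so the unstranded counts were used. Without strand, reads of overlapping genes cannot be assigned, which leaves genes such as Gtpbp6, Dbp and Lgi4 uncertain. Lines for unmapped, multimapping, ambiguous and unassigned reads made up 22.1 to 54.5% of each library and were left out, and 0 columns lacked a sample.

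Genes were kept by filterByExpr by group, scaled by TMM and tested with edgeR 4.0.16 (quasi-likelihood F test, two-sided, R 4.3.3) in a model of 3 groups, with Benjamini-Hochberg adjustment over all genes tested and a threshold of 0.05. The fit was repeated without sgKcna1 replicate 12. Levels are TMM-scaled CPM. DESeq2 1.42.0, limma-voom 3.58.1, filters, covariates, strand counts, a fit to the 2 groups alone and leaving out each library were alternatives, with 2 more (without libraries carrying both Xist and Y-linked reads, and a choroid plexus covariate) chosen after seeing the data. The script was tested on simulated data with known changes.

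The genes named were Kcna1, up to 6 per direction with the smallest p over all libraries (mean of at least 1 CPM, groups without overlap, strand counts summing to at most 1.05 times the unstranded count), all genes called without replicate 12 with the smallest p filling the lower side up to 5, and up to 4 members per list by smallest p. The lists were 41, of which 19 are marker lists, and 919 of 924 symbols were matched. The members and lists were chosen with earlier results of these data known. Results of some genes are not reported here. Promoter windows were read from RefSeq (GRCm38.p6).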

Additional observations from a re-analysis of the deposited data

Results flagged for a closer look

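A library was marked when its distance to the nearest other library of its group, divided by the range of the group on the log2 scale, exceeded Dixon's 95% critical value (0.71 for 5 libraries and 0.625 for 6). Chance marks about 1 in 20 groups when values are not chosen by their spread. Many of the genes were named from the fit without sgKcna1 replicate 12. That choice favours genes in which replicate 12 stands apart, so the rate does not apply to its marks. Of 248 values tested 36 were marked, 28 of them for sgKcna1 replicate 12, 2 for other treated libraries and 6 for controls.

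sgKcna1 replicate 12 was highest of the treated group in Kcna1 (133 CPM), Nptx2 (69.8 CPM), Mmp14 (40.6 CPM), Slc4a7 (71.2 CPM), Cald1 (89.1 CPM), Neurod2 (661 CPM), Maml2 (56.7 CPM), Hs3st4 (326 CPM), Nrp1 (116 CPM), Clock (121 CPM), Grm5 (328 CPM), Rplp1 (3140.4 CPM), Rplp2 (891 CPM) and Elovl6 (97.7 CPM). It was lowest in Ngef (47.0 CPM), ENSMUSG00000117935 (0.187 CPM), Gtpbp6 (3.27 CPM), Dbp (4.29 CPM), Gm13904 (0.653 CPM), Cyc1 (53.8 CPM) and Cacng3 (12.3 CPM). Among summed lists it was highest for hippocampal tissue (2943 CPM), glutamate receptors (5634 CPM), neurotrophins and Trk receptors (1349 CPM) and ribosomal proteins (24711 CPM), and lowest for oxidative phosphorylation (20550 CPM) and cholesterol and fatty acid synthesis (2248 CPM). Its share of unmapped reads, 41.5%, was the highest of its group.

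sgKcna1 replicate 1 was highest of its group in Otof (14.9 CPM) and Trh (24.0 CPM). Among controls, replicate 14 was lowest in Tyro3 (98.2 CPM) and replicate 23 highest in Trbc2 (2.48 CPM). Control replicate 13 was highest for the ependymal list (272 CPM) and the complement list (445 CPM), replicate 15 lowest for neuropeptides (3045 CPM) and replicate 16 highest for extracellular matrix (3189 CPM). Treated and epileptic sgLacZ mice, set against the same controls, were tested for a difference in 160 gene results, and none passed an adjusted p of 0.05 (edgeR quasi-likelihood test).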

How the results depend on the processing

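Over all libraries, where edgeR called 0 genes, DESeq2 called 39, a percent unmapped covariate gave 266 and voom with sample quality weights 71, and leaving out 1 library gave 0 to 14, the 14 without sgKcna1 replicate 12. Kcna1, at 0.11, became -0.41 with the percent unmapped covariate, -0.13 with sex, -0.82 with voom, -0.75 without libraries carrying both Xist and Y-linked reads and -0.87 without sgKcna1 replicate 12, with a range of -0.87 to 0.29 when 1 library was left out. Without replicate 12, the 14 calls became 549 with DESeq2, 85 without a filter on low genes, 1998 with only the 2 groups, 6 with both strands added, 402 with the percent unmapped covariate and 1118 with voom. They became 0 with sex as a covariate (3156 at an unadjusted p under 0.05), 0 without the libraries carrying both Xist and Y-linked reads (1719, with 3 treated and 3 control libraries left) and 0 with the choroid plexus covariate (2412), the last 2 chosen after seeing the data. Leaving out 1 further library gave 0 to 668. DESeq2 size factors in the edgeR fit kept the count at 14. Kcna1 without replicate 12, at -0.87, passed the threshold with only the 2 groups (-0.86, adjusted p = 0.0145) and with voom (-0.89, adjusted p = 0.0293). The causes were not tested.

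With both strands added, Gtpbp6 over all libraries became -0.0061. Over all libraries Zbtb20 ranged from -0.80 to 0.079 and Neurod2 from -0.50 to 0.054 when 1 library was left out, positive without sgKcna1 replicates 1, 2 or 3 for Zbtb20 (0.055, 0.079 and 0.053) and replicate 1 for Neurod2. Of 160 gene results, 156 kept their direction under every alternative run and 4 did not. The lower ependymal members at an unadjusted p, 13 over all libraries and 16 without replicate 12, ranged from 10 to 19 and from 10 to 21 over the settings, and from 8 to 22 and 11 to 24 when 1 library was left out. The higher neocortical members, 7 and 8, ranged from 6 to 8 in both over the settings, and from 3 (without sgKcna1 replicate 3) to 8 and 7 to 8 when 1 library was left out. No paired analysis was possible because the groups share no replicate numbers. Depth limits replicate 12 most, since 3 of its reads equal 0.253 CPM.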
